A study of Mus musculus with 12 samples.

Results

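The 10 genes described here encode lysosomal cathepsins (Ctsb, Ctsc, Ctsd, Ctsh, Ctsk, Ctsl, Ctss and Ctsz) and lysosome-associated membrane proteins, or LAMPs (Lamp1 and Lamp2). They were taken by symbol from a table of 32544 genes, and all 10 were among the 14285 genes with enough counts to be tested. RNA was sequenced from bone marrow-derived macrophages (BMDMs) and from NIH/3T3 cells, an established mouse fibroblast line, in 4 groups of 3 libraries. The BMDMs came from LDL receptor knockout mice that carried LysM-Cre. Those labelled PHD2 WT were the LysM-Cre controls, and in those labelled PHD2cko the Cre, which is active in myeloid cells, was to delete a conditional Egln1 allele, the gene of the oxygen sensor PHD2. BMDMs were grown from marrow with L929-cell medium. LDL receptor deficiency and LysM-Cre were thus shared by both BMDM groups. BMDMs were sampled 24 h after seeding. 3T3 cells of one line were starved and then kept for 72 h in medium conditioned by WT or by PHD2cko BMDMs (2% serum, 15% L929-cell medium), here called WT medium and PHD2cko medium. Whether the BMDMs that conditioned this medium were kept in normal oxygen or in hypoxia is not stated for the sequenced samples. The labels do not say that the 3 libraries of a group came from separate animals or cultures, so p-values measure the spread between these libraries, which may be technical.

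Library totals ran from 15516465 to 25199770 estimated counts. Egln1 mRNA was higher in the libraries labelled PHD2cko, at 68.3 to 71.6 CPM (counts per 1e6 counts, scaled by TMM normalization factors) against 54.7 to 55.8 CPM in WT BMDMs (log2 fold change 0.33, standard error (SE) 0.0527, adjusted p = 0.00203). Egln3, which encodes PHD3 and is a known target of the hypoxia-inducible factors, was higher too (log2 fold change 1.96, SE 0.100, adjusted p = 1.8e-07). The table gives 1 value per gene and none for the deleted part of Egln1, and the label PHD2cko is therefore used below only as a label. BMDM libraries carried all 20 macrophage markers, at a summed 34016 to 39661 CPM (over the total count, as for the other marker sums), and at most 16.5 CPM of 14 fibroblast markers, with Lum at 0 in WT. Granulocyte markers summed to at most 0.889 CPM in BMDMs. Lymphocyte markers summed to 2.503 to 3.19 CPM in WT BMDMs and 3.96 to 4.45 CPM in BMDMs labelled PHD2cko, with Cd3e at 0 in both. 3T3 libraries carried all 14 fibroblast markers, at 33723 to 39206 CPM in WT medium and 40763 to 42953 CPM in PHD2cko medium, without overlap. Within the WT medium group, replicate 1 stood apart, where chi-square divided by its degrees of freedom was 23.1 and 24.9 against the others and 2.29 between those.

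Cathepsins are proteases that are made as inactive precursors, tagged with mannose 6-phosphate, sorted to the lysosome and activated there by acid. Ctsd is an aspartic protease and the other cathepsins of the group are cysteine proteases, some of which cut within proteins while others trim their ends. Macrophages use them to degrade phagocytosed protein and to process antigens, and can release them to cut elastin and collagen, as in the atherosclerotic plaque. LAMP1 and LAMP2 are heavily glycosylated proteins that line the lysosomal membrane, and an isoform of LAMP2 is the receptor of chaperone-mediated autophagy. Many lysosomal genes are targets of the MiT-TFE transcription factors (TFEB, TFE3, MITF and TFEC), which bind E-boxes with the core CACGTG.

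Promoters of 8 of the 10 genes were found by symbol in a RefSeq promoter table (GRCm38.p6, from 250 bases before to 50 after the start site). Those of Ctsb and Ctsh were not among them. The letters CACGTG, which read the same on both strands, occurred in 3 of the 8 (37.5%) and in 7.15% of all 32851 promoters of the table. Lamp1 held 4 copies, starting at positions -61, -45, -28 and -15 from the start site. Ctsd held 2 copies, at -245 and -98, and Ctsl held 1, at -236. A match is a description of the letters, not a binding site. The stretches that hold the copies are shown because these 3 members differed in their calls in 3T3 cells, as described below, where Lamp1 was called lower, Ctsl higher and Ctsd in neither direction. Each reads 5′ to 3′ on the gene's strand, with CACGTG in capitals. The Lamp1 stretch is chr8:13159081-13159160 (plus strand), the Ctsd stretches chr7:142388048-142388077 and chr7:142387908-142387937 (minus strand) and the Ctsl stretch chr13:64370739-64370768 (minus strand). The Ctsd copy at -98 lies inside the first exon of a longer annotated Ctsd transcript, and the Ctsl stretch inside a longer annotated Ctsl transcript.
Lamp1: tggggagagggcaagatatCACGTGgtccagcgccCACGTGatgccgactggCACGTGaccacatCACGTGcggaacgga
Ctsd (-245): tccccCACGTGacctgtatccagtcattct
Ctsd (-98): tcgcccgcgtctCACGTGacccgttgaggg
Ctsl: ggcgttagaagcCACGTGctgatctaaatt

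All 10 genes were more abundant in WT BMDMs than in 3T3 cells in WT medium, from 1.63-fold for Ctsl to 5739-fold for Ctss, with Ctsc at least 2261-fold higher. Together they took 3.27% ± 0.0358 of all counts in WT BMDMs and 0.318% ± 0.0119 in 3T3 cells in WT medium (SD, n = 3 each). All 10 were called higher in BMDMs and their groups did not overlap. Of all genes tested, 40.4% were called higher, 85.3% were called in either direction, 85.1% did not overlap and 40.4% lay higher without overlap. The median log2 fold change was 3.85 for the 10 genes and -0.08 for all genes. Cells of different kinds and libraries of different culture time (24 and 72 h) were compared here, so the cell type and its culture conditions cannot be told apart.
The genes fell into those nearly restricted to BMDMs and those shared by both cell types. Ctss, an elastin-cutting endopeptidase of antigen-presenting cells, was at 6701, 6350 and 6500 CPM in the 3 WT BMDM libraries and at 0.865, 1.31 and 1.16 CPM in 3T3 cells in WT medium (log2 fold change 12.49, SE 0.643, adjusted p = 4.7e-10). Ctsh, an aminopeptidase, was at 299.6 to 307.8 CPM against 0.106 to 0.305 CPM (10.44, SE 0.237, adjusted p = 1.2e-13). Ctsc, or dipeptidyl peptidase I, which activates the serine proteases of leukocyte granules, was at 376.1 to 385.2 CPM in BMDMs and had 0, 2 and 0 counts in the 3T3 libraries in WT medium, so that it was at least 2261-fold higher at a floor of 3 counts per library.
Ctsb, Ctsz and Ctsd were found in both cell types at levels that differed by at least 10-fold. Ctsb, an abundant protease that acts as an endopeptidase and also removes dipeptides from the ends of chains, had a log2 fold change of 5.01 (SE 0.125), Ctsz, a carboxypeptidase, one of 4.28 (SE 0.112) and Ctsd one of 3.43 (SE 0.0787). The remaining 4 genes differed less. Lamp1 was 5.61-fold higher in BMDMs, Lamp2 2.33-fold, Ctsk 1.77-fold and Ctsl 1.63-fold. Ctsk, the collagenase of osteoclasts, was rare in both cell types, at 15.1 to 18.4 CPM in WT BMDMs and 8.14 to 10.9 CPM in 3T3 cells in WT medium.

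**Figure D1:**
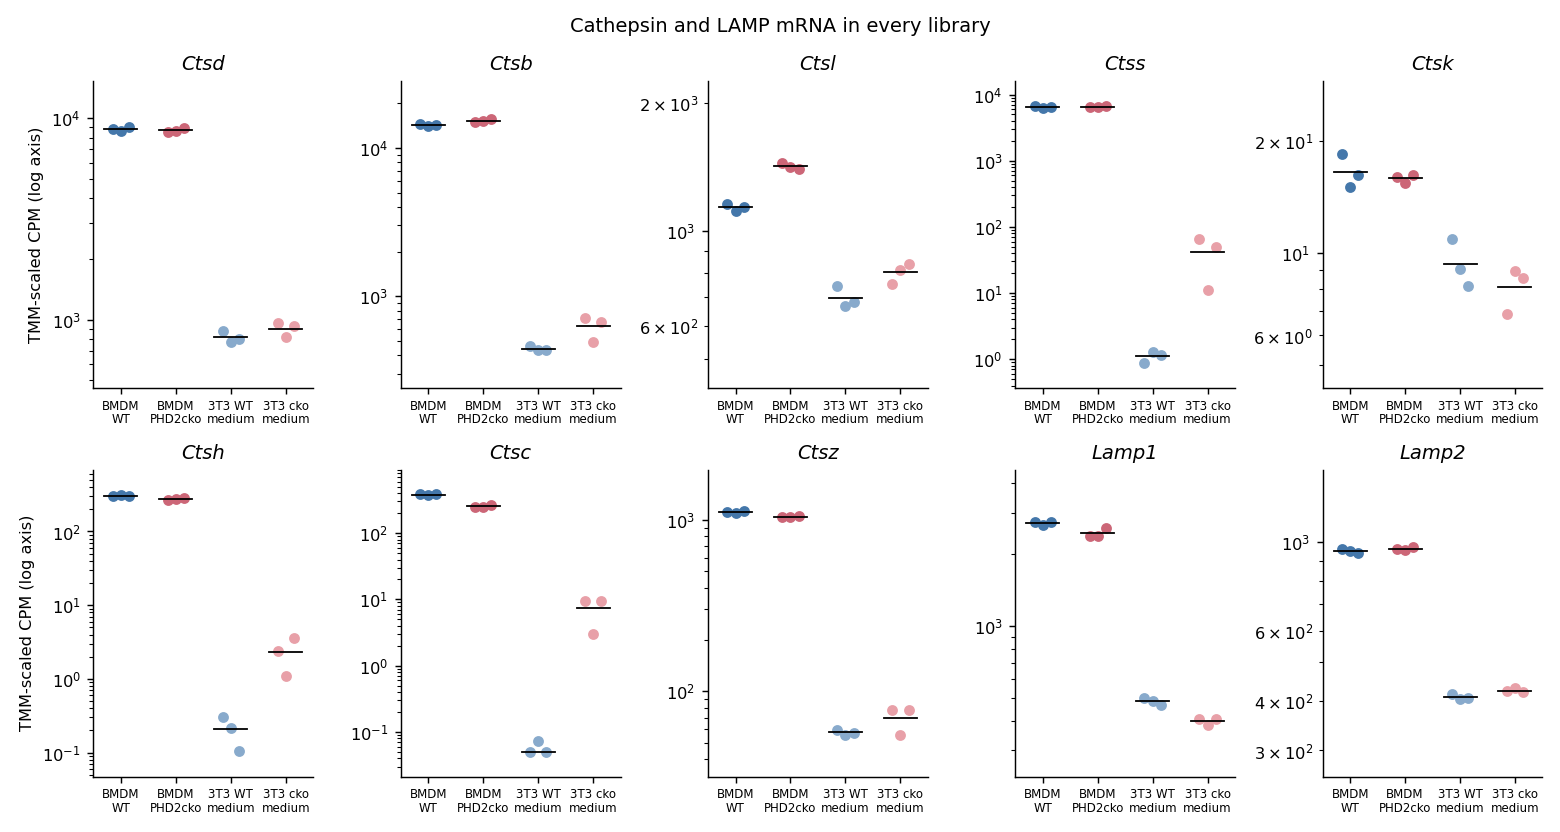
TMM-scaled CPM (log axis, a different range for each gene) of the 10 genes in each of the 12 libraries, with 1 point per library and a line at the group mean, plotted at 0.05 CPM where lower. "3T3 cko medium" is PHD2cko medium. Ctss, Ctsh and Ctsc lie far lower in 3T3 cells than in BMDMs, and in PHD2cko medium replicate 2 lies lowest of the 3 libraries for each of them.

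Levels of different genes were compared per kb of the longest annotated transcript. In WT BMDMs the order was Ctss (4809 ± 130.2 CPM per kb), Ctsd (4150 ± 92.1), Ctsb (3008 ± 35.7), Lamp1 (1217 ± 20.3), Ctsz (771 ± 7.94), Lamp2 (264 ± 3.06), Ctsl (185 ± 3.46), Ctsc (118 ± 1.49), Ctsh (111 ± 1.53) and Ctsk (10.96 ± 1.13, SD, n = 3). No neighbours in this order overlapped between libraries. In 3T3 cells in WT medium Ctsd stood first (385 ± 25.7 CPM per kb) and Lamp1 second (217 ± 6.97), followed by Lamp2 and Ctsl, whose libraries overlapped (113 ± 1.63 and 113 ± 6.41), and by Ctsb (93.6 ± 3.57), Ctsz (39.8 ± 1.27), Ctsk (6.19 ± 0.924) and Ctss (0.820 ± 0.166). Ctsh and Ctsc were near 0. The places of Ctsl and Lamp2, and in 3T3 cells of Lamp1 beside them, depended on the length used, since transcripts of Ctsl and Lamp2 differ widely. With the first-named transcript, Ctsl (354 CPM per kb) and Lamp2 (231) came before Lamp1 (217) in 3T3 cells in WT medium. In WT BMDMs Ctsl was then at 578 CPM per kb. With the union of exons, Ctsl came before Lamp2 in both cell types and Ctsh before Ctsc in BMDMs.

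The comparison of BMDMs labelled PHD2cko with WT BMDMs asked whether loss of PHD2 in macrophages alters their transcripts. Lysosomal protease mRNA differed little between the labels. Ctsl rose 1.25-fold, Ctsc was the gene furthest from 0 in the other direction, at 0.668 times the WT level, and the other 8 genes lay within 10% of WT. In the fit of all 12 libraries 1 of the 10 genes was called higher and 0 lower, where 6.73% of all genes tested were called (3.38% higher, 3.35% lower), and 3 had an unadjusted p under 0.05, as had 19.0% of all genes. The groups did not overlap for 6 genes (2 higher, 4 lower), and for 31.9% of all genes (16.3% higher, 15.6% lower). The median log2 fold change was -0.04 for the 10 genes and 0.00022 for all genes.
Ctsl encodes a cysteine endopeptidase that cuts collagen, elastin and the invariant chain (ENSMUSG00000021477.9, chromosome 13, 64359337 to 64370890, here and below on GRCm38 with GENCODE annotation). It was at 1159, 1117 and 1140 CPM in WT and at 1446, 1418 and 1398 CPM in the libraries labelled PHD2cko. All 3 of the latter were above all WT libraries (log2 fold change 0.32, SE 0.0596, adjusted p = 0.00579). Ctsl was called under all 7 alternatives tried and with each of the 12 libraries left out (adjusted p from 6.3e-04 to 0.0331).
Ctsc (ENSMUSG00000030560.17, chromosome 7, 88278085 to 88310888) was at 385.2, 376.1 and 383.1 CPM in WT and at 251.1, 248.8 and 264.8 CPM in the libraries labelled PHD2cko, which were all lower. The log2 fold change was -0.58 (SE 0.173) with an adjusted p of 0.0696. This SE was shared with the 3T3 libraries, in which Ctsc counts were low and uneven. With the 6 BMDM libraries fitted alone the SE was 0.0264 and the adjusted p was 1.8e-09 (edgeR), and limma-voom gave 0.0117 and the fit with no filter 0.0351. The DESeq2 Wald test (0.144), the replicate block (0.0968) and DESeq2 size factors in edgeR (0.0674) did not call it. Without replicate 1 of 3T3 cells in WT medium the adjusted p was 0.00388, and without replicate 2 in PHD2cko medium it was 3.7e-05, while the call was absent with each of the other 10 libraries left out (adjusted p up to 0.221).
For Lamp1 (ENSMUSG00000031447.7, chromosome 8, 13159161 to 13175338, the chromosome of Egln1), the WT libraries were at 2744, 2661 and 2732 CPM and those labelled PHD2cko at 2395, 2401 and 2582 CPM. The latter were all lower, with a log2 fold change of -0.14 (SE 0.0551, adjusted p = 0.171; 0.0166 by the DESeq2 Wald test, which called it). Lamp2 (ENSMUSG00000016534.15, chromosome X, 38401357 to 38456454) was at 941.6 to 963.7 CPM in WT and 954.6 to 971.6 CPM in the libraries labelled PHD2cko, and these ranges overlapped.

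Among the other endopeptidases, Ctsd (ENSMUSG00000007891.16, chromosome 7, 142375911 to 142388038) had overlapping ranges, 8614 to 8999 CPM in WT and 8514 to 8956 CPM under the label PHD2cko. Ctsb (ENSMUSG00000021939.8, chromosome 14, 63122462 to 63145923) was at 14131 to 14458 CPM in WT and 14838 to 15708 CPM in the libraries labelled PHD2cko, without overlap (log2 fold change 0.10, SE 0.105, adjusted p = 0.721). Ctss (ENSMUSG00000038642.10, chromosome 3, 95526786 to 95556403) overlapped between the labels, with a log2 fold change of 0.01. Its SE was 0.372 with all 12 libraries and 0.0262 with the 6 BMDM libraries alone. Ctsk (ENSMUSG00000028111.4, chromosome 3, 95499256 to 95509362), which lies next to Ctss, was at 15.4 to 16.3 CPM under the label PHD2cko, within the WT range. The exopeptidases Ctsh (ENSMUSG00000032359.14, chromosome 9, 90054152 to 90076089; log2 fold change -0.14) and Ctsz (ENSMUSG00000016256.10, chromosome 2, 174427493 to 174439039; -0.09) were each lower in all 3 libraries labelled PHD2cko, and neither was called (adjusted p = 0.607 and 0.716).
Fitting the 6 BMDM libraries alone left the fold changes in place and called 6 of the 10 genes, Ctsl and Ctsb higher and Ctsc, Ctsh, Ctsz and Lamp1 lower, where 20.6% of the genes tested in that fit were called. Their adjusted p ran from 1.8e-09 for Ctsc to 0.0441 for Ctsz (edgeR). Macrophage markers summed to 38826 to 39661 CPM in WT BMDMs and to 34016 to 35193 CPM in those labelled PHD2cko, with Lyz2 at 37.2 to 38.4% and 30.3 to 31.0% of the sum. The part of this difference, and of the lymphocyte markers, in these values was not tested.

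The comparison of 3T3 cells in the conditioned media asked how fibroblasts respond to medium from macrophages labelled PHD2cko. Here 5 of the 10 genes were called higher in PHD2cko medium, Ctsc, Ctss, Ctsh, Ctsb and Ctsl, and 1, Lamp1, was called lower. Of all genes tested, 15.7% were called in this comparison, 8.93% higher and 6.75% lower. The groups did not overlap for 7 genes (6 higher, 1 lower), and for 31.9% of all genes (15.4% higher, 16.5% lower). With the 6 3T3 libraries fitted alone, 4 of the 10 genes were called, Ctsc, Ctss and Ctsh higher and Lamp1 lower, where 6.82% of the genes tested in that fit were. The median log2 fold change was 0.24 for the 10 genes, also with Ctsc at its lower bound, and -0.0046 for all genes. The 10 genes together took 0.367% ± 0.0267 of counts in PHD2cko medium (SD, n = 3).
The genes that rose most were those nearly restricted to BMDMs. Ctsc had 0, 2 and 0 counts in WT medium and 183, 52 and 197 counts in PHD2cko medium, and was at least 53.8-fold higher (adjusted p = 6.8e-05). Ctss was at 0.865, 1.31 and 1.16 CPM in WT medium and at 65.003, 11.2 and 50.2 CPM in PHD2cko medium (log2 fold change 5.22, SE 0.563, adjusted p = 1.2e-04). Ctsh had 6, 6 and 2 counts in WT medium and 46, 19 and 74 counts in PHD2cko medium (3.47, SE 0.458, adjusted p = 3.6e-04). For all 3 genes replicate 2 in PHD2cko medium was the lowest of its group and still above all libraries in WT medium.
Ctsb was at 463.6, 432.9 and 435.8 CPM in WT medium and at 712.8, 495.2 and 674.6 CPM in PHD2cko medium, again with replicate 2 lowest and no overlap (log2 fold change 0.50, SE 0.106, adjusted p = 0.00717; 0.0598 with the 6 3T3 libraries fitted alone). Ctsz was at 59.4, 55.7 and 57.1 CPM against 77.3, 55.3 and 77.3 CPM, so that replicate 2 fell below all libraries in WT medium (0.29, SE 0.102, adjusted p = 0.0766; 4.4e-05 without that replicate and 0.0233 by the DESeq2 Wald test). Ctsd was at 880.9, 777.6 and 798.1 CPM against 957.8, 817.3 and 934.7 CPM, with overlap (0.14, SE 0.0717, adjusted p = 0.214). Without replicate 2 in PHD2cko medium the adjusted p of Ctsd was 0.0367, and without replicate 1 in WT medium it was 0.0354.

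Markers of macrophages were also higher in PHD2cko medium, and replicate 2 was lowest for their sum too. Of 20 macrophage markers, 19 were called higher in 3T3 cells in PHD2cko medium, and all 20 were higher without overlap. Only Aif1 was not called (adjusted p = 0.0504). As a share of their summed level in BMDMs of the matching label, they stood at 0.0936% ± 0.00127 in WT medium and at 2.42, 0.589 and 2.18% in replicates 1, 2 and 3 in PHD2cko medium (1.73% ± 0.995; SD, n = 3 each; two-sided exact permutation p = 0.100, the smallest that 3 against 3 libraries allow). Of 14 fibroblast markers, 7 were called higher and 2 lower in PHD2cko medium. The part of these shifts in the values of the 10 genes was not tested beyond the subtraction of the macrophage share given below. In PHD2cko medium replicate 2 had the lowest share, and it also had the lowest Ctsc, Ctss, Ctsh, Ctsb, Ctsz and Ctsd of the group.
For the 6 cathepsins at least 10 times higher in BMDMs, the excess in PHD2cko medium over the mean in WT medium was also taken. It was expressed as a share of the gene's own level in BMDMs labelled PHD2cko, from CPM over the total count. The excess of Ctsb was 2.29, 0.496 and 1.94% of its BMDM level in replicates 1, 2 and 3. For Ctsd and Ctsz, which were not called for the medium, it was 2.34, 0.257 and 1.92%, and 2.57, -0.0927 and 2.51%. These values lay close to the marker share of the same library in replicates 1 and 3 and below it in replicate 2. Ctss rose by 1.21, 0.190 and 0.920% and Ctsh by 0.966, 0.397 and 1.5004%, below the share in all 3 libraries. Ctsc rose by 4.54, 1.43 and 4.58%, about 2 times the share. Single macrophage markers ranged from 0.941 to 14.0%, from 0.245 to 2.68% and from 0.801 to 11.01% in the 3 libraries, with medians of 2.99, 0.645 and 2.71%. All 6 cathepsins lay within the range of the markers in replicates 1 and 3. In replicate 2, Ctss and Ctsz lay below it.

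**Figure D2:**
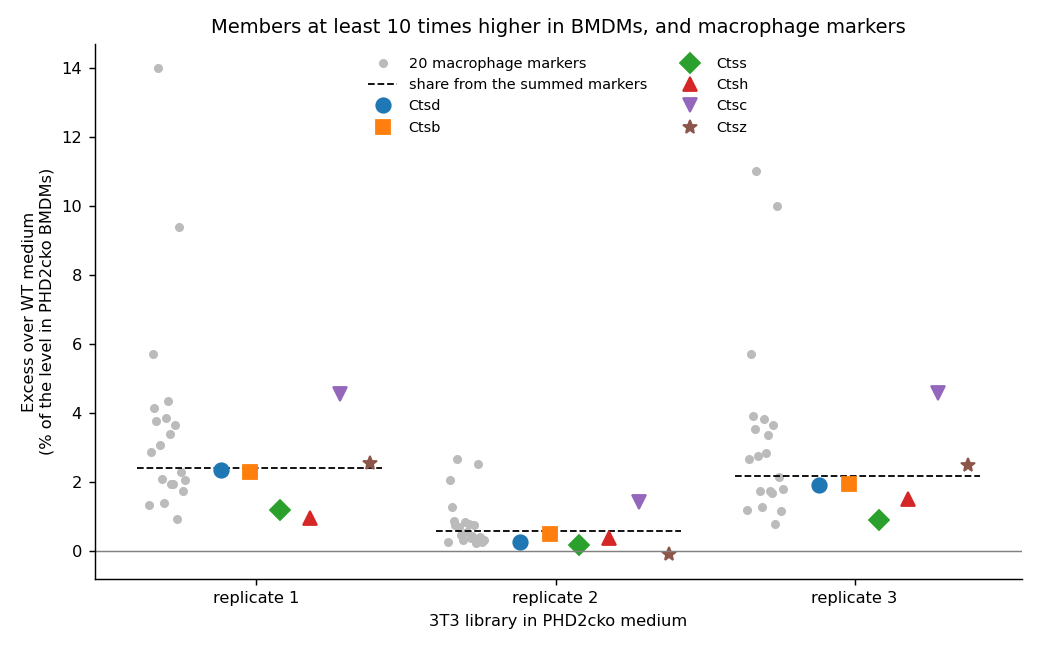
Excess of each gene in the 3T3 libraries in PHD2cko medium over its mean in WT medium, as a percentage of its level in BMDMs labelled PHD2cko (CPM over the total count), for the 6 cathepsins at least 10 times higher in BMDMs and for 20 macrophage markers (grey points). Dashed lines give the share from the summed markers, 2.42, 0.589 and 2.18%, and replicate 2 lies lowest for the share and for each of the 6 cathepsins.

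Subtracting from each 3T3 library its marker share times the BMDM profile of the matching label left 3 of the 10 genes called, Ctsc and Ctsl higher and Lamp1 lower, where 13.2% of all genes were called. The log2 fold change of Ctsb was then -0.03 (SE 0.0469, adjusted p = 0.707), that of Ctsd -0.02 (SE 0.054) and that of Ctsz 0.0045 (SE 0.0614). Ctss and Ctsh were left with at most 1 count in any library, which allows no fold. Ctsc kept 86, 31 and 103 counts in PHD2cko medium and 0 in each library in WT medium. When the share was instead the median of the markers' own ratios, an alternative chosen after the data were seen, Ctsb and Ctsz were called lower (-0.44 and -0.18, adjusted p = 0.0189 and 0.0235) and Ctsc kept 39, 23 and 58 counts, where 13.1% of all genes were called. In bulk RNA, a few cells with much of a transcript and many cells with little of it cannot be told apart.
Lamp1 and Ctsl were also called with the share subtracted. Lamp1 was at 498.7, 483.7 and 467.6 CPM in WT medium and at 407.7, 385.4 and 404.8 CPM in PHD2cko medium, all lower (log2 fold change -0.28, SE 0.0554, adjusted p = 0.00519). With the share subtracted the log2 fold change was -0.37 (SE 0.0481, adjusted p = 4.8e-04). Lamp1 was higher in BMDMs and the share was larger in PHD2cko medium. Subtraction could therefore only lower this value, and its call is no separate support. Lamp1 was called under all 9 alternatives, which include the subtractions, and with each of the 12 libraries left out (adjusted p from 0.00605 to 0.0230).
Ctsl was at 742.6, 668.3 and 682.0 CPM in WT medium and at 753.8, 813.0 and 837.3 CPM in PHD2cko medium, higher without overlap (0.20, SE 0.0596, adjusted p = 0.0397). With the share subtracted the log2 fold change was 0.20 (SE 0.0555, adjusted p = 0.0319). The call was near the threshold, and it was lost with 10 of the 12 libraries left out in turn, all but replicate 1 in WT medium and replicate 1 in PHD2cko medium (adjusted p from 0.00381 to 0.158). It was also lost with the 6 3T3 libraries alone (0.110), with no filter beyond 1 count (0.0586) and with the replicate block (0.0647).
Lamp2 was at 404.3 to 415.5 CPM in WT medium and at 419.9 to 429.7 CPM in PHD2cko medium, higher without overlap but not called (0.05, SE 0.0448, adjusted p = 0.474). Ctsk overlapped between the media and was not called (-0.21, SE 0.126, adjusted p = 0.307).

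**Figure D3:**
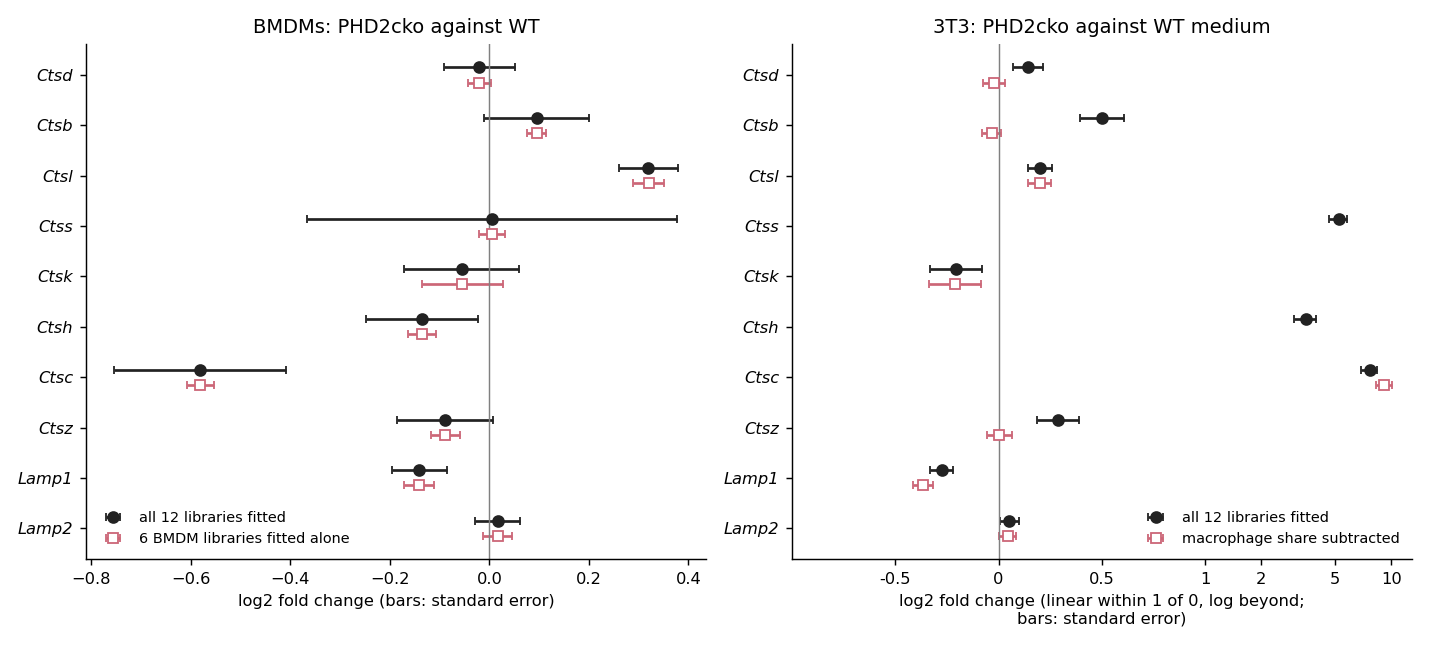
Log2 fold changes of the 10 genes with their SE (bars). Left, BMDMs labelled PHD2cko against WT, with all 12 libraries fitted (filled) or the 6 BMDM libraries alone (open), where the values coincide and the SE of Ctss shrinks from 0.372 to 0.0262. Right, 3T3 cells in PHD2cko against WT medium before (filled) and after (open) the macrophage share was subtracted, on an axis that is linear within 1 of 0 and logarithmic beyond. Ctss and Ctsh are not drawn after subtraction, since at most 1 count was left, and the values of Ctsc depend on the prior count.

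The effect of the label was compared between 3T3 cells and BMDMs by an interaction term. It differed for 3 of the 10 genes, Ctsc, Ctss and Ctsh, all with the larger value in 3T3 cells, where 12.3% of all genes were called and 7.71% were called with the larger value there. For Ctss the difference was not called by limma-voom (adjusted p = 0.0501). With the macrophage share subtracted Ctsc was the 1 gene of the 10 called, where 9.88% of all genes were. For Ctsl, called higher in both comparisons, the difference was -0.12 (SE 0.0842, adjusted p = 0.419). For Lamp1, at -0.14 in BMDMs and -0.28 in 3T3 cells, it was -0.13 (SE 0.078, adjusted p = 0.312). Neither was called in the fit of all 12 libraries. With the share from the median marker subtracted the difference for Lamp1 was -0.28 (SE 0.0725, adjusted p = 0.0305). That subtraction by itself lowers Lamp1 more in PHD2cko medium than in WT medium. For Ctsb and Ctsz the differences were 0.40 and 0.38 (adjusted p = 0.106 and 0.109), and without replicate 2 in PHD2cko medium both were called (1.6e-04 and 1.0e-04), as they were by the DESeq2 Wald test (0.0368 and 0.0402). With the share subtracted the differences were -0.13 and 0.095 and neither was called, and with the median share they were -0.53 (adjusted p = 0.0443) and -0.092 (0.421).

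The rest of the lysosomal machinery was read from lists by function. In BMDMs 0 to 2 genes of each list were called, where 6.73% of all genes tested were. Of 34 hydrolases and cofactors, Galns, a sulfatase of keratan sulfate, was higher (log2 fold change 0.41) and Psap, the precursor of the saposins, was lower (-0.36). Of 17 subunits of the V-ATPase, the proton pump that acidifies lysosomes and that cathepsins need for activation, Atp6v0d2 (0.80, adjusted p = 3.8e-05) and Atp6v1a (0.24) were higher. Of 18 other membrane proteins, Sidt2 (-0.40) and the amino acid transporter Slc36a1 (-0.23) were lower. Of 6 sorting genes, Gnptab, a subunit of the enzyme that makes the mannose 6-phosphate tag, was higher (0.25) and the sorting receptor Sort1 lower (-0.38). None of the 4 MiT-TFE genes, the 4 other cathepsins or the 4 cystatins, their inhibitors, was called, with Ctse nearest to the threshold (-0.89, adjusted p = 0.0502). Of the 34 hydrolases, 18 were higher and 2 lower without overlap, where 16.3% and 15.6% of all genes lay so. Their median log2 fold change was 0.08, and with the 6 BMDM libraries alone 11 were called higher and 2 lower, where 20.6% of the genes tested in that fit were called.
In 3T3 cells in PHD2cko medium the hydrolases moved both ways, 4 higher and 11 lower of 34, with a median log2 fold change of -0.12. Of all genes tested, 8.93% were called higher and 6.75% lower. Those called higher were Manba (2.43), Man2b1 (0.47), Gusb (0.38) and Acp5. Acp5 had at most 5 counts in any 3T3 library and passed the filter only through BMDMs, so nothing is read from its call, and 3 remain without it. Man2b1 and Manba encode mannosidases and Gusb a glucuronidase. Among the lowest were Gla (-0.37) and Arsa (-0.34), enzymes that break down glycolipids. Of the membrane proteins Laptm5 (6.47) and Cd68 (3.07), both typical of leukocytes, were higher and none was lower. In WT medium the mean was 0.433 CPM for Laptm5 and 0.445 CPM for Manba, so the size of their folds is imprecise. Of the V-ATPase subunits 4 were lower, Atp6v1f (-0.32), Atp6v1g1 (-0.26), Atp6v1e1 (-0.23) and Atp6v1d (-0.21), and none was higher. Gnptg (-0.40) was lower. Of the 4 MiT-TFE genes, Mitf (-0.34) was called lower and Tfec higher. Tfec had 2 to 4 counts in WT medium and 6 to 20 in PHD2cko medium, and nothing is read from its call, as for Acp5. With the macrophage share subtracted, 1 hydrolase was called higher and 16 lower, 9 V-ATPase subunits lower, and 2 membrane proteins higher and 1 lower, where 13.2% of all genes were called. The share was larger in PHD2cko medium, so the subtraction by itself lowers genes that are higher in BMDMs. In WT BMDMs 30 hydrolases and 14 V-ATPase subunits were called higher than in 3T3 cells, where 40.4% of all genes were. The added lower calls are therefore not read as a larger decrease. With the 6 3T3 libraries alone, 1 hydrolase was called higher and 4 lower and the V-ATPase calls were lost, where 6.82% of the genes tested in that fit were called.

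**Figure D4:**
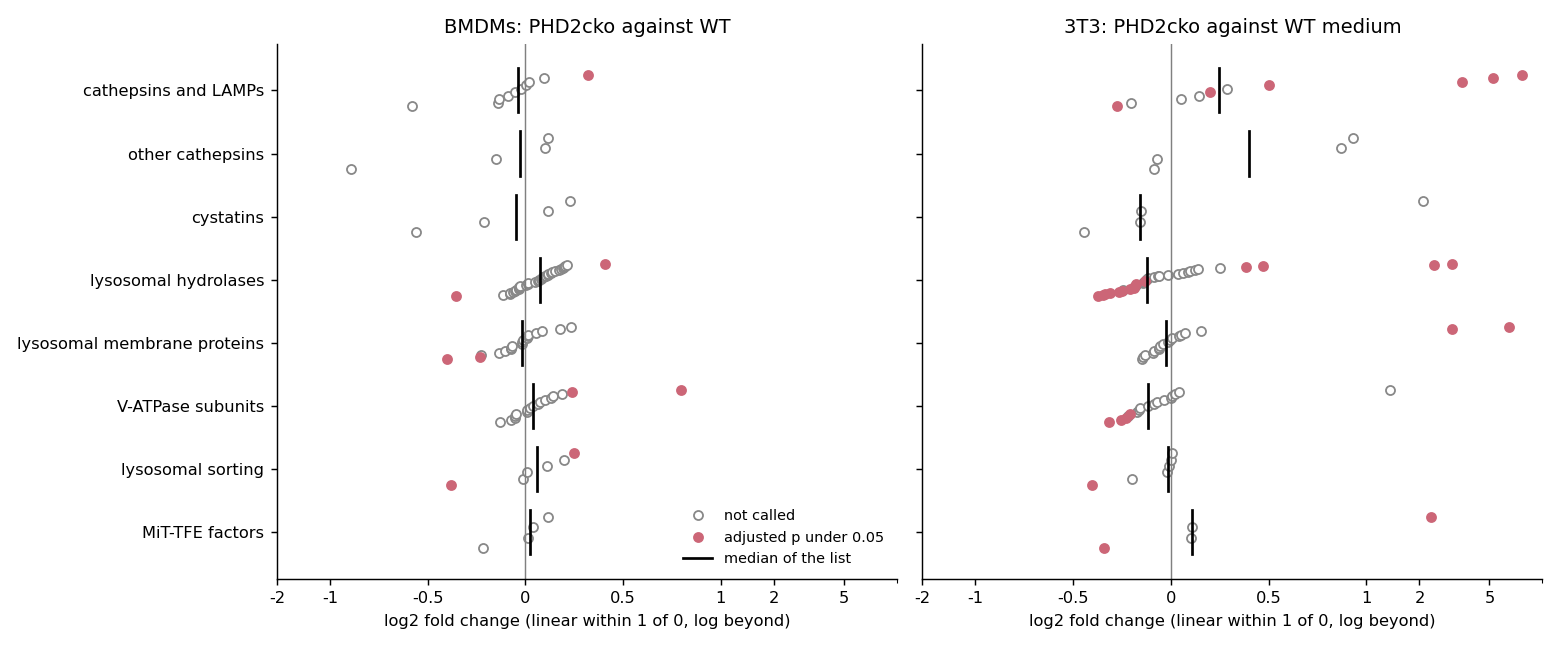
Log2 fold change of each tested gene in 8 lists of lysosomal genes (1 point per gene, filled where the adjusted p is under 0.05, black line at the list's median), in BMDMs (left) and 3T3 cells (right), on an axis that is linear within 1 of 0 and logarithmic beyond. In 3T3 cells the hydrolases have a median of -0.12 with 4 genes called higher and 11 lower, and the 10 cathepsins and LAMPs a median of 0.24. Values of genes with a few counts in WT medium, such as Ctsc, Acp5 and Tfec, depend on the prior count.

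Over the 12 libraries the genes most like each member in log2(CPM + 1) were sought, as a description that rests mainly on the difference between the cell types. Ctsc ran most closely with Cx3cr1, Csf1r and Nlrp3 (Pearson r = 0.999 each over 12 libraries), Ctss with Tlr13, Myo1f and Pid1, and Ctsl with Fos, Cenpa and Pcna (0.99, 0.989 and 0.988). Ctsk had the loosest match, Ifitm2 at 0.984. Annotated genes overlap Ctsb (Fdft1), Ctsd (Gm49369, which was not among the genes tested), Ctsz (Nelfcd) and Lamp1 (Grtp1), and whether counting used strand is not stated. Fdft1 was lower in 3T3 cells in PHD2cko medium (log2 fold change -0.34, adjusted p = 0.002), opposite to Ctsb, and Grtp1 and Nelfcd were not called in either comparison.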

How the data were processed

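RNA was sequenced from BMDMs and 3T3 cells in 4 groups of 3 libraries. The authors deposited estimated counts per gene, made with Kallisto on GRCm38 per the submitters' processing notes, without normalization. The Kallisto version, transcript annotation, library kit and strand are not given in the sources used here, nor how the estimates became whole numbers. Reads shared by similar transcripts were divided by the estimation.
Estimated counts were rounded, filtered with filterByExpr, scaled by TMM and tested two-sided with edgeR 4.0.16 (quasi-likelihood, limma 3.58.1, R 4.3.3) over all 12 libraries, with Benjamini-Hochberg adjustment over 14285 genes and a threshold of 0.05. CPM are counts over the effective library size per 1e6. CPM per kb used GENCODE annotation. All 12 columns were mapped by their labels. Folds against a group at up to 3 counts per library are bounds at that floor, which covers counting error only.
The macrophage share was the summed CPM of 20 markers over that in BMDMs of the same label. The share times the BMDM profile was subtracted, rounded, with 0 as the lowest value.
Alternatives were DESeq2 size factors, the DESeq2 1.42.0 Wald test, limma-voom (the method of the study), a minimum of 10 counts per library, no filter, 1 cell type alone, the replicate block, share subtraction and each library left out. Libraries of a group differed by more than counting noise (chi-square per degree of freedom from 1.97). Genes named are the 10 members, Egln1, up to 3 called genes per list and direction with the largest change, 3 genes most like each member, and overlapping neighbours; Ctse and the fourth V-ATPase subunit were added after their values were seen. The members and lists were chosen with earlier results of these data known. The fits were tested on simulated data. Promoters are RefSeq, GRCm38.p6.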

Additional observations from a re-analysis of the deposited data

Results flagged for a closer look

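For 3 cathepsins the effect of the PHD2cko label differed between 3T3 cells and BMDMs by the test of the interaction term in edgeR. The difference of the log2 fold changes, 3T3 minus BMDMs, was 8.24 for Ctsc (SE 0.763, adjusted p = 6.9e-05), 5.21 for Ctss (SE 0.686, adjusted p = 4.2e-04) and 3.60 for Ctsh (SE 0.474, adjusted p = 4.2e-04). For Ctss limma-voom gave 4.91 with an adjusted p of 0.0501. The value of Ctsc depends on the prior count, since it had 0, 2 and 0 counts in WT medium. All 3 libraries in PHD2cko medium lay above all 3 in WT medium for each of these genes. With the macrophage share subtracted, Ctss and Ctsh had at most 1 count in any 3T3 library and of the 10 genes Ctsc remained called. No group held 4 or more libraries, so the test for a single far-off value, which needs at least 4, was not run.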

How the results depend on the processing

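Of the fits with another setting, BMDM libraries alone moved most, to 6 of the 10 genes and 2534 of all genes called for the label in BMDMs. The DESeq2 Wald test, limma-voom and no filter each called 2 of the 10 genes there, where the Wald test called 1118 and limma-voom 1065 of all genes, against 961 in the main fit. With 3T3 libraries alone, 912 of all genes were called for the medium, and with the share subtracted 3 of the 10 genes were. The Wald test called 7 of the 10 genes for the medium, no filter 5, and the filter at 10 counts, which left 2 of them untested, 4. For the difference between cell types the Wald test called 5 of the 10 genes, and the filter at 10 counts, which left Ctsc and Ctsh untested, and share subtraction called 1 each. Where no count of all genes stands beside a count for the 10 genes, no move of the 10 genes alone is read from it. Leaving out 1 library gave 1 to 2 of the 10 genes and 527 to 1889 of all genes for BMDMs (527 without BMDM WT replicate 1, 1889 without replicate 1 in WT medium), 5 to 7 and 1260 to 2757 for 3T3 cells (1260 without replicate 3 in PHD2cko medium), 10 and 11952 to 12448 between cell types, and 3 to 5 and 1272 to 2316 for the difference (5 without replicate 2 in PHD2cko medium).
The sign turned for Ctss in BMDMs (-0.0022 with at least 10 counts, -0.013 without WT replicate 2 and -0.026 without PHD2cko replicate 3; up to 0.026 without WT replicate 1) and for Ctsk (0.028 without WT replicate 1). In 3T3 cells it turned with the share subtracted for Ctsb (-0.033), Ctsd (-0.021) and Ctsh (-1.68), and with the median share for Ctsb (-0.44), Ctsd (-0.12), Ctsh (-3.84) and Ctsz (-0.18). For the difference between cell types it turned for Ctsb (-0.13), Ctsh (-1.55) and Ctss (-0.0029) with the share, and for Ctsb (-0.53), Ctsd (-0.10), Ctsh (-3.70), Ctss (-0.0044) and Ctsz (-0.092) with the median share. Fitted values of Ctsh and Ctss after subtraction rest on counts of at most 4 and carry no fold. The cause of these moves was not tested.
Within a cell type, deviations from the group mean in same-numbered WT and PHD2cko libraries had correlations from -0.11 to 0.056 over 12848 genes. With 3 libraries per group such deviations hold much noise, so values near 0 cannot exclude pairing. Same-numbered BMDM and 3T3 libraries were not compared. With the replicate block 1 of the 10 genes was called in BMDMs, 5 in 3T3 cells (Ctsl lost, adjusted p = 0.0647), 10 between cell types and 3 for the difference, and 815, 1953, 12135 and 1541 of all genes. Ctsc and Ctsh in 3T3 cells in WT medium had at most 6 counts, which limits the precision of their folds. With 3 libraries per group no permutation of libraries can reach a p under 0.100.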
